A study of Homo sapiens with 22 samples.

Results

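The untreated, unedited HT1080 cell line was described from its 4 RNA-seq libraries, chosen by their sample labels (wild-type 1 to 4) out of 22 libraries in the series. HT1080 is an established line from a human fibrosarcoma, a malignant tumor of connective tissue, and is referred to as WT. The other 18 libraries came from 3 lines edited from it with CRISPR/Cas9, KDAC6H216A, KDAC6H611A and KDAC8H143A, with 4 libraries each, and from WT cells given 1 µM Tubastatin A or 5 µM PCI-34051 for 2 days, with 3 libraries each. Each edited line carries 1 changed histidine in a lysine deacetylase, an enzyme that removes acetyl groups from proteins, and Tubastatin A and PCI-34051 are inhibitors of KDAC6 and KDAC8. Per the study's methods, KDAC6H216A was a pool of 3 independently obtained cell lines. The other groups served here only as a yardstick for the spread within a group.

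All 4 WT libraries were made from cells grown in serum-containing medium without inhibitor, after depletion of ribosomal RNA. They are described in the study as biological replicates of 1 line, so the spread between them is that of cultures and libraries of a single line. The 4 libraries held 5248960, 8998521, 8763531 and 7804566 counts. Between 20.8% and 23.9% of these were the mitochondrial ribosomal RNAs MT-RNR1 and MT-RNR2 and between 10.1% and 12.5% were small RNAs, led by the signal recognition particle RNAs RN7SL2 and RN7SL1 and by 7SK. After both classes were left out, 64.5% to 68.6% of the counts remained, and every level below is in CPM, counts scaled to a total of 1000000 kept counts in each library, unless stated otherwise. A count of 0 allows up to 3 counts in a library, which is 0.886 CPM in replicate 1 and 0.497, 0.499 and 0.587 CPM in replicates 2, 3 and 4. These limits cover counting error only. Because the number of counts follows transcript length, genes are ranked against each other by TPM except where counts are named. TPM are the counts divided by the length of all annotated exons of a gene and scaled to a total of 1000000 in each library, and some of these orders change when the mean transcript length of a gene is used instead. In bulk RNA, fewer cells that express a gene and less RNA per cell cannot be told apart.

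Fibroblast-like tumor cells are usually recognized by the intermediate filament vimentin, by the hyaluronan receptor CD44 and by secreted matrix such as fibronectin and collagens, and by the absence of the epithelial adhesion genes CDH1 (E-cadherin) and EPCAM. HT1080 is known as a line with an activating mutation of NRAS, a small GTPase that feeds the RAF, MEK and ERK kinases, and as a strongly invasive line in matrix assays. The gene lists below follow these themes. Whether a gene is transcribed also goes with the base composition of its promoter: housekeeping genes tend to start in stretches rich in the dinucleotide CpG, and many genes restricted to a tissue do not.

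Of 19631 protein-coding genes in the table, 12021 (61.2%) reached 1 CPM or more in all 4 libraries and are termed detected, and 2105 (10.7%) reached 100 CPM or more in all 4. At the other end, 3689 genes (18.8%) had 0 counts in all 4 libraries and are termed silent, which means not seen at this depth. A further 2395 genes had counts in 1 to 3 libraries, and 1526 had counts in all 4 but stayed under 1 CPM in at least 1. With the limit at 3 counts in each library, 5903 genes (30.1%) were at or under it. Counts of detected and silent genes in the lists below stand against the 61.2% and 18.8% of all protein-coding genes. Long noncoding RNAs were detected less frequently, with 1447 of 14090 (10.3%) at 1 CPM or more in all 4 and 7478 (53.1%) silent.

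The 250 bases before the start site of 3 genes illustrate the range of promoters among genes at high levels. They were read from the GRCh38 genome at the canonical transcript start of GENCODE 44 and were chosen after their values were seen. TMSB10 (chr2:84905406-84905655, plus strand) encodes an actin-binding thymosin and AXL (chr19:41218973-41219222, plus strand) a receptor tyrosine kinase, and both were at 100 CPM or more. In these sequences capitals mark CpG. H1-4 (chr6:26156079-26156328, plus strand) encodes a linker histone, and there capitals mark the motif TATAAA.
TMSB10: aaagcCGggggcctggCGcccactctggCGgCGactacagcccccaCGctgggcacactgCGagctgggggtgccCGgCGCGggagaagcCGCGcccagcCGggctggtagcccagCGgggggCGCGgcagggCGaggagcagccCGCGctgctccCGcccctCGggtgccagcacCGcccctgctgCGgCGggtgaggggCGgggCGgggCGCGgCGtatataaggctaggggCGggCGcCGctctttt
AXL: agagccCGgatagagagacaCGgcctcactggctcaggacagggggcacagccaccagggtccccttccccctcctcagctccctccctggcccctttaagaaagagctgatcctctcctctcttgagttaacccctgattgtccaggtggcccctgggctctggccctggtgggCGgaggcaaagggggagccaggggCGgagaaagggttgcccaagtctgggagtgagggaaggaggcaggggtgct
H1-4: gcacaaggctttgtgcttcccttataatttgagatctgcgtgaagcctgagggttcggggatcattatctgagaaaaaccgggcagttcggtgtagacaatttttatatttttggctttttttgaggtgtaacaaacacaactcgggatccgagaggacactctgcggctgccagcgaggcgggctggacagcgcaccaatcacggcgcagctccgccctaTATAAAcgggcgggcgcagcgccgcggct
The TMSB10 stretch held 31 CpG and the AXL stretch 4, so a gene at a high level could have many CpG or few.

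Across 19618 protein-coding genes with a start site on a nuclear chromosome, the window from 250 bases before to 50 bases after the start held a median of 23 CpG. Silent genes had a median of 6 CpG (quartiles 2 and 17), genes between silent and detected 13, detected genes under 100 CPM in at least 1 library 27, and genes at 100 CPM or more 30 (quartiles 23 and 37). These classes were set by counts, and their median exon lengths also rose in this order, at 2193, 3663, 5303 and 7523 bases. At least 15 CpG were found in 28.7% of the silent promoters and in 92.4% of those at 100 CPM or more, against 13332 of all 19618 promoters. Without olfactory receptor and keratin-associated genes, the median of the remaining 3238 silent promoters was 7. The motif TATAAA on the gene's strand, searched from 40 to 20 bases before the start, was present in 3.88% of all promoters, in 9.05% of the silent ones and in 149 of the 9913 detected ones under 100 CPM. These are descriptions of base composition, since neither methylation nor factor binding was measured.

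**Figure D1:**
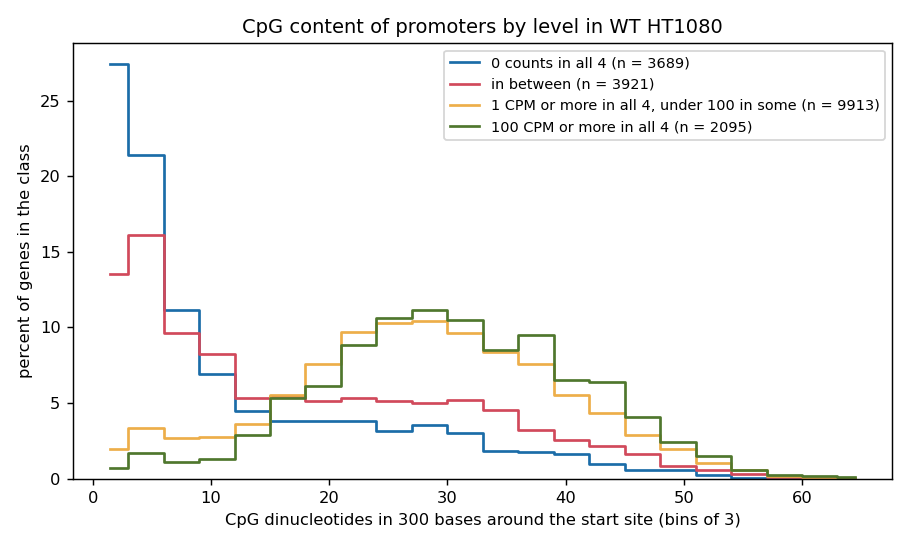
Number of CpG in the 300 bases around the start site (x axis, in bins of 3) against the percent of genes of each class (y axis), with 1 line per class of level in the WT libraries. Silent genes pile up at few CpG, with a median of 6, while genes at 100 CPM or more spread around a median of 30.

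Per length of all annotated exons, the highest protein-coding transcripts were those of the mitochondrial genome and of basic cell functions. The 25 highest held 8 mitochondrial mRNAs, led by MT-CO3 and MT-CO1, subunits of cytochrome c oxidase, at 22530 ± 2968 and 19180 ± 1689 TPM (SD, n = 4 here and below). The highest nuclear transcript was GAPDH, a glycolytic enzyme, at 7640 ± 289 TPM, followed by TMSB10 at 7228 ± 186 TPM. EEF1A1 and EEF2, both elongation factors of translation, reached 4674 ± 223 and 4088 ± 257 TPM. VIM (vimentin) stood among them at 4535 ± 111 TPM, with the actins ACTB at 3465 ± 104 TPM and ACTG1 at 3404 ± 135 TPM. Also in this group were FTL, the light chain of ferritin, S100A6, a calcium-binding protein, LGALS1, a galectin, HSPA8, a constitutive chaperone, and the ribosomal protein genes RPS12, RPL41 and RPS2. By counts, EEF1A1 was highest at 10570 ± 522 CPM. Its exon length of 10063 bases, which sums alternative exons, lowers its level per length. With the mean transcript length it ranked 2, against 7 with all exons. On that length MT-CO3, MT-CO1 and MT-ATP6 ranked 1, 3 and 12. However, MT-ND4, MT-CO2, MT-CYB, MT-ND4L and MT-ND5 then ranked 26, 48, 58, 75 and 85, and FTL and RPS12 ranked 44 and 63.

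Only 5.26% ± 0.0345 of the protein-coding counts fell on the 10 highest genes of each library and 17.2% ± 0.227 on the 100 highest. By counts, the long genes AHNAK, a scaffold protein, and FLNA, the actin cross-linker filamin A, were also among the 10 highest, at 5349 ± 132 and 3622 ± 242 CPM. The 13 mitochondrial mRNAs together gave 19650, 17030, 16630 and 18360 CPM in replicates 1 to 4. Their sum was thus higher in replicates 1 and 4 than in replicates 2 and 3, although MT-CO3 was lowest in replicate 4, at 3452 CPM.

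**Figure D2:**
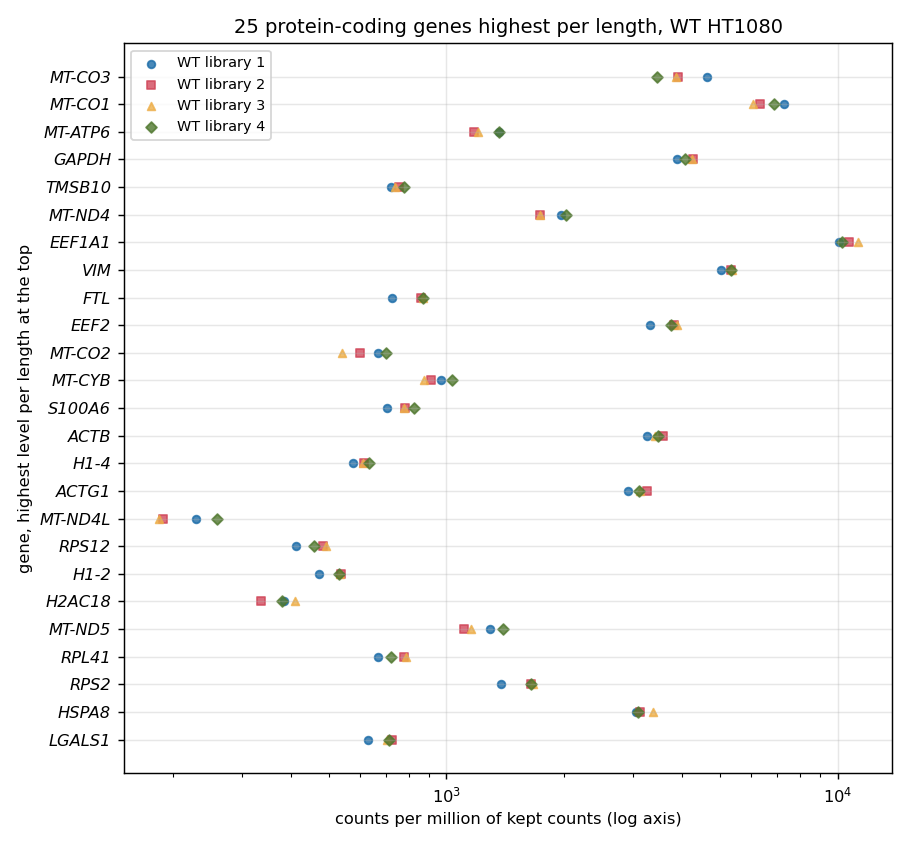
CPM on a log axis in each of the 4 WT libraries (1 symbol per library) for the 25 protein-coding genes with the highest level per length, ordered from the top. The 4 symbols lie close together for most genes, as for TMSB10 at 722 to 779 CPM, and farther apart for mitochondrial mRNAs such as MT-CO3 at 3452 to 4639 CPM.

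The linker histone genes H1-4 and H1-2 and the core histone gene H2AC18 were also among the 25, at 3452 ± 114, 3158 ± 173 and 3153 ± 277 TPM. With the mean transcript length they fell out of the 25 and ranked 70, 79 and 80. The mRNAs of histones made during DNA replication end in a stem-loop and carry no poly(A) tail, and libraries made by depletion of ribosomal RNA keep them. Of 69 such genes, 42 were detected and 18 were silent. H2AC18 and H2AC19 are near-identical copies, had fractional counts and are uncertain one by one. Of the 69 promoters, 38 (55.1%) held TATAAA in the window given above, against 3.88% of all promoters. The H1-4 sequence shown holds it with its first base 29 bases before the start.

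Of 26 mesenchymal genes, 17 (65.4%) were detected, 3 were silent, and the median level was 13.0 TPM, so the detected share was close to that of all protein-coding genes (61.2%), whose median was 8.28 TPM. VIM was at 5033, 5352, 5375 and 5341 CPM, so replicate 1 was the lowest and the other three agreed closely. CD44 was at 1437, 1436, 1435 and 1376 CPM. FN1, the gene of fibronectin, was at 919, 959, 1050 and 967 CPM, and SPARC, a collagen-binding matrix protein, at 575, 610, 607 and 595 CPM. ENG (endoglin) was at 119 ± 12.4 CPM, CDH2 (N-cadherin) at 103 ± 5.09 CPM, and ZEB1, a repressor of epithelial genes, at 79.1 ± 3.77 CPM. The related factors ZEB2, SNAI2, TWIST2 and TWIST1 were at 54.1 ± 3.84, 15.5 ± 1.07, 13.4 ± 3.69 and 7.54 ± 0.359 CPM.

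Several markers of normal fibroblasts were low or silent. The fibrillar collagen genes COL1A1 and COL1A2 reached only 4.14 ± 0.628 and 3.12 ± 1.32 CPM, and COL3A1 had 0 counts in every library. FAP, a protease of activated fibroblasts, and LUM, a collagen-binding proteoglycan, were silent as well. DCN, THY1, PRRX1 and PDGFRA, which are common fibroblast markers, were at or under 0.692 CPM on average. PDGFRB, a growth factor receptor, was at 5.23 ± 1.32 CPM.

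Among 20 epithelial genes, 8 were detected and 6 were silent, and the median was 0.306 TPM. The keratin pair KRT8 and KRT18, which form filaments together, was at 187 ± 12.4 and 164 ± 10.3 CPM, and DSP (desmoplakin), a desmosome protein, at 56.6 ± 3.32 CPM. KRT8 and KRT18 lie side by side on chromosome 12 and overlap, and their fractional counts leave a part of the reads shared. The 6 silent genes were EPCAM, CDH1, KRT5, KRT14, KRT19 and ESRP1. The junction genes OCLN and CLDN4 were detected at 7.98 ± 3.28 and 5.51 ± 2.10 CPM, and MUC1, KRT7 and ESRP2 at 2.21 ± 0.860, 1.95 ± 0.660 and 1.72 ± 0.532 CPM. Among all 55 keratin genes 8 were detected and 37 were silent, and KRT81, a hair keratin, was the highest per length at 715 TPM and 310 ± 20.9 CPM.

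In the lists of other lineages, 4 of 12 muscle genes, 2 of 8 bone and cartilage genes, 3 of 10 neural genes, 2 of 6 pluripotency genes, 1 of 8 endothelial genes and 1 of 10 blood genes were detected. Of the muscle genes, 7 were silent, among them the determination factors MYOD1, MYOG and MYF5. ACTA2 (smooth muscle actin) was at 19.0 ± 0.988 CPM, and the myosin and smooth muscle genes MYH3, TAGLN and MYH11 were at 8.41 ± 2.00, 8.25 ± 1.35 and 5.95 ± 1.24 CPM. In the bone and cartilage list the transcription factors SOX9 and RUNX2 were at 175 ± 4.12 and 25.7 ± 2.76 CPM, while the cartilage matrix gene ACAN was silent and COL2A1 was at 0.0830 CPM. TIE1, an endothelial receptor, was at 127, 125, 135 and 130 CPM, while the other 7 endothelial genes stayed at or under 1.53 CPM on average. CD68, a lysosomal protein abundant in macrophages, was at 84.3 ± 6.98 CPM, and the leukocyte genes PTPRC, CD3E and SPI1 were silent. TUBB3, a tubulin named for neurons, was at 161 ± 11.9 CPM and NEFL, a neurofilament, at 19.6 ± 2.10 CPM, with SOX10 silent. No adipocyte or hepatocyte gene was detected among 7 and 6. POU5F1, a pluripotency factor with several processed copies in the genome, was at 5.53 ± 1.64 CPM.

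**Figure D3:**
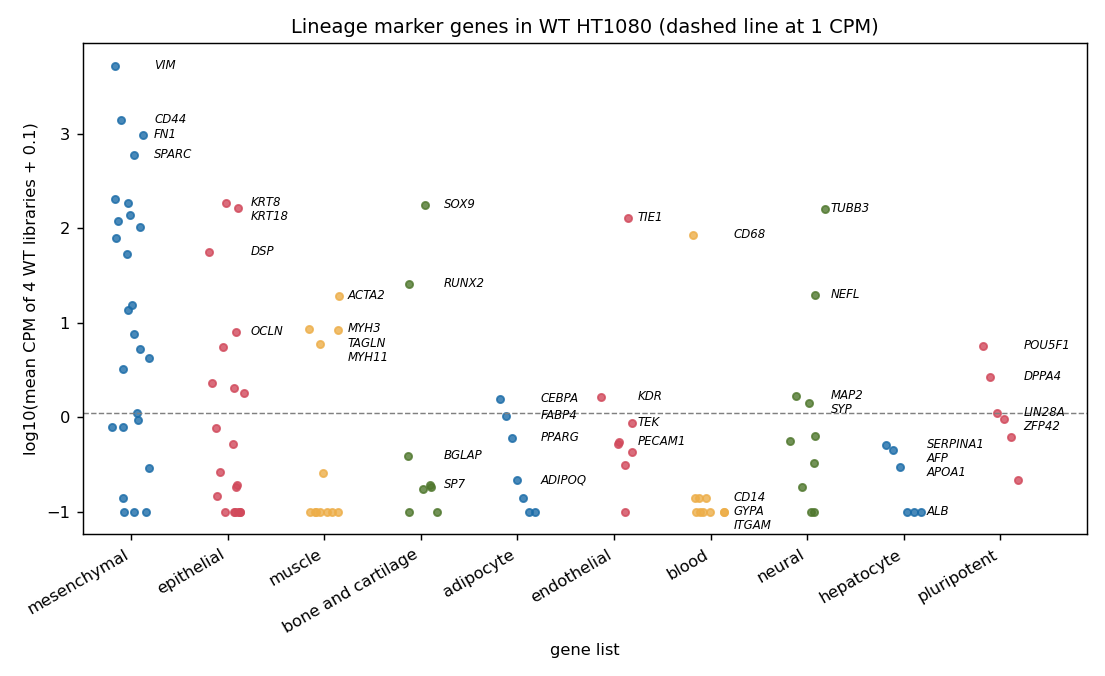
Mean level over the 4 WT libraries, as log10(CPM + 0.1), of each gene in 10 lineage lists, with 1 point per gene and the 4 highest of each list named. Only the mesenchymal list has most of its genes above the dashed line at 1 CPM, and among the high genes of the other lists are KRT8 at 187 CPM, SOX9 at 175 CPM and TIE1 at 129 CPM.

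Of 39 HOX genes, which record position along the body axis, 27 (69.2%) were detected and 6 were silent. Of all protein-coding genes 61.2% were detected. The highest HOX genes per length were HOXB9 at 75.4 TPM, HOXB6 at 36.2 TPM, HOXB2 at 32.2 TPM and HOXA9 at 30.3 TPM. With the mean transcript length HOXA9 was at 35.8 TPM, HOXB6 at 30.5 TPM and HOXB9 at 27.4 TPM. HOXB9 was at 43.8 ± 2.25 CPM and HOXA9 at 20.6 ± 2.41 CPM. HOXB1, HOXD1, HOXD3, HOXD4, HOXA11 and HOXC11 were silent.

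Of 21 genes in the RAS to ERK list 20 were detected, with a median of 61.8 TPM. Per length, NRAS stood at 106 ± 7.32 TPM and HRAS at 56.0 ± 2.07 TPM, but with the mean transcript length at 38.4 and 49.4 TPM, so their order turns on the length used. In counts NRAS was at 105, 108, 107 and 92.6 CPM in replicates 1 to 4 and HRAS between 29.1 and 31.5 CPM. The kinases BRAF, MAP2K1 and MAP2K2 were at 58.3, 67.3 and 108 CPM on average. Genes usually induced by ERK signaling were uneven. FOSL1, an AP-1 factor, was at 344, 366, 350 and 369 CPM, PHLDA1 at 755 ± 18.1 CPM and EPHA2, a receptor for ephrins, at 351 ± 14.9 CPM, while FOS and EGR1 were at 2.94 ± 1.13 and 2.21 ± 0.103 CPM.

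The feedback genes of the pathway were unequal. The nuclear phosphatase genes DUSP4 and DUSP5 were at 215.5 ± 6.16 and 142 ± 1.91 CPM, whereas DUSP6, the cytoplasmic ERK phosphatase, was the one listed gene that was not detected, between 0.499 CPM (replicate 3) and 1.37 CPM (replicate 4). SPRED1, SPRY4 and SPRY2, which restrain the pathway, were at 116 ± 6.93, 69.4 ± 5.26 and 64.2 ± 2.61 CPM. The ETS factor genes ETV5 and ETV4 were at 139 ± 10.4 and 43.5 ± 3.64 CPM.

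Among 28 receptor tyrosine kinases 13 were detected, with a median of 1.30 TPM. AXL was far above the rest, at 1644, 1819, 1775 and 1783 CPM, or 1521 ± 55.0 TPM. EPHA2 followed at 377 TPM, MET at 184 TPM, DDR2 (a collagen receptor) at 112 TPM and EGFR at 106 TPM. With the mean transcript length AXL and EPHA2 stayed highest, and EGFR, DDR2 and MET were at 186, 142.7 and 132 TPM. MET and EGFR were at 299 ± 12.1 and 380 ± 12.1 CPM. ERBB2, FGFR1 and IGF1R were between 62.0 and 77.6 CPM on average. ALK and RET were silent, and INSR, the insulin receptor, was at 0.653 ± 0.445 CPM.

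Of 35 other oncogenes 32 were detected, with a median of 54.4 TPM, against 8.28 TPM over all protein-coding genes. HMGA1 and HMGA2, chromatin proteins that bind the DNA minor groove, were at 1033 ± 40.4 and 559 ± 19.0 CPM. CCND1 (cyclin D1) was at 874, 962, 925 and 933 CPM, and its kinase partners CDK6 and CDK4 were at 358 ± 7.77 and 222 ± 8.97 CPM. MYC was at 74.7 ± 3.40 CPM and MYCN was silent. MDM2, a ubiquitin ligase, was at 607 ± 24.6 CPM. TERT, the catalytic subunit of telomerase, was at 19.5, 19.4, 21.3 and 27.0 CPM. IDH1 and IDH2, isocitrate dehydrogenases, were at 60.2 ± 2.34 and 14.7 ± 2.14 CPM.

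Of 29 tumor suppressor genes, 27 were detected, with a median of 30.4 TPM. NF2 was at 692 ± 24.2 CPM, ATM at 317 ± 18.5 CPM, CDKN1A (p21) at 196 ± 15.2 CPM and RB1 at 110 ± 4.97 CPM. CDKN2A and CDKN2B, neighboring inhibitors of the cyclin D kinases, had 0 counts in all 4 libraries.

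The neighborhood of this pair on chromosome band 9p21 was followed gene by gene in GRCh38. At lower positions, FOCAD (chr9:20658309-20995955) and KLHL9 (chr9:21329665-21335404) were at 75.2 ± 5.33 and 82.5 ± 3.54 CPM. The interferon genes IFNB1, IFNW1 and IFNA21 between them were silent. MTAP (chr9:21802636-21937651), which salvages methionine, was at only 16.2, 23.8, 23.2 and 29.1 counts, or 4.57 ± 0.851 CPM. Its counts were fractional in all 4 libraries and are uncertain. The noncoding RNA gene CDKN2A-DT (chr9:21966929-21967751) came next with 0 counts in all 4. CDKN2A (chr9:21967752-21995301) and CDKN2B (chr9:22002903-22009305) followed with 0 counts, while CDKN2B-AS1 (chr9:21994139-22128103), a noncoding RNA that overlaps both on the other strand, had 21, 23, 29 and 28 counts. At higher positions, DMRTA1 (chr9:22446824-22455740) was at 12.6 ± 2.61 CPM and CAAP1 and PLAA were at 19.2 ± 2.01 and 68.7 ± 4.04 CPM. The 0 counts thus covered CDKN2A-DT and both inhibitor genes between protein-coding neighbors with counts, and the state of the DNA was not measured. Whether the counting used strand is not given in the sources used here, so reads of CDKN2B-AS1 and of genes it overlaps cannot be told apart with certainty.

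Of 44 collagen genes 24 (54.5%) were detected and 3 were silent, with a median of 1.43 TPM. Of all protein-coding genes 61.2% were detected. COL6A3, a chain of the beaded-filament collagen VI, was at 2720, 2925, 2911 and 2817 CPM, or 588 ± 16.4 TPM. The other chains COL6A2 and COL6A1 were at 172 and 150 TPM. The basement membrane chains COL4A2 and COL4A1 were at 849 ± 66.3 and 493 ± 12.1 CPM, and at 196 and 150 TPM. COL13A1, a transmembrane collagen, was at 281 ± 11.8 CPM. With the mean transcript length COL4A2 and COL4A1 were at 804 and 469 TPM. Of the fibrillar collagen genes, COL27A1 was at 185 ± 10.3 CPM and 58.9 TPM, COL5A1 at 140 ± 13.4 CPM, and its fibril partner COL5A2 at 2.58 ± 0.590 CPM.

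Of 12 laminin chains, the cross-shaped proteins of basement membranes, 10 were detected. LAMB3 was at 1190, 1341, 1301 and 1332 CPM, or 1236 ± 56.8 TPM. LAMC1 and LAMB1 were at 347 and 113 TPM. LAMA3 was at 12.7 ± 0.826 CPM. The alpha chains LAMA4, LAMA5 and LAMA1 were at 222 ± 8.44, 131 ± 15.01 and 106 ± 5.97 CPM.

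Integrins, the receptors that tie cells to these proteins, were detected in 17 of 26 cases (65.4%), near the 61.2% of all protein-coding genes. ITGA3, a laminin-binding chain, was at 1596, 1692, 1708 and 1775 CPM, and its partner ITGB1 at 1430, 1455, 1518 and 1402 CPM. ITGA6, also a laminin-binding chain, was at 982 ± 34.5 CPM, ITGA2, a collagen-binding chain, at 543 ± 20.4 CPM and ITGA5, a fibronectin-binding chain, at 371 ± 10.4 CPM. ITGB4, the other partner of ITGA6, was at 4.597 ± 0.761 CPM. The leukocyte chain ITGAM was at 0.0414 CPM.

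Among 33 matrix glycoproteins 24 were detected. Per length CCN2, a growth factor-binding matrix protein, was highest at 846 TPM, followed by SPARC at 572 TPM and CCN1 at 512 TPM, then EFEMP1 at 369 TPM, THBS1 (thrombospondin) at 260 TPM and FN1 at 252 TPM. With the mean transcript length SPARC was highest at 983 TPM, THBS1 was at 566 TPM, CCN1 at 338 TPM and CCN2 at 307 TPM. ELN (elastin) was silent and POSTN (periostin) was at 0.0489 CPM. Of 27 proteoglycan and hyaluronan genes 15 (55.6%) were detected, against 61.2% of all protein-coding genes. They were led per length by CD44 at 633 TPM, SRGN (serglycin, a proteoglycan of secretory granules) at 511 TPM and SDC1 (syndecan) at 398 TPM. With the mean transcript length CD44 stayed highest, and SDC1 and SRGN were at 320 and 223 TPM. Of 13 cross-linking and collagen-modifying genes 11 were detected, with TGM2, a transglutaminase, at 806 ± 36.7 CPM, LOXL2, a lysyl oxidase, at 401 ± 19.5 CPM and PLOD2, a collagen lysyl hydroxylase, at 347 ± 10.8 CPM.

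Among the matrix metalloproteinases MMP14, which is anchored in the plasma membrane, stood highest per length. It was at 1053, 1131, 1090 and 1132 CPM, or 1060 ± 27.9 TPM. The secreted collagenase gene MMP1 was at 79.2 ± 6.15 CPM and the gelatinase gene MMP2 at 56.3 ± 5.05 CPM, while the other gelatinase gene, MMP9, was at 2.07, 0.994, 1.67 and 1.37 CPM. Of 23 metalloproteinases, 8 were detected and 6 were silent (MMP8, MMP10, MMP11, MMP12, MMP20 and MMP27). Of 19 ADAMTS genes 7 were detected, with ADAMTS6 at 125 ± 7.19 CPM. In the plasminogen system, the urokinase gene PLAU was at 874 ± 32.8 CPM and 1319 TPM and its receptor PLAUR at 136 ± 3.03 CPM and 136 TPM. The metalloproteinase inhibitors TIMP2 and TIMP1 were at 191 and 177 TPM, TIMP3 was at 23.7 ± 2.64 CPM and TIMP4 was silent.

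**Figure D4:**
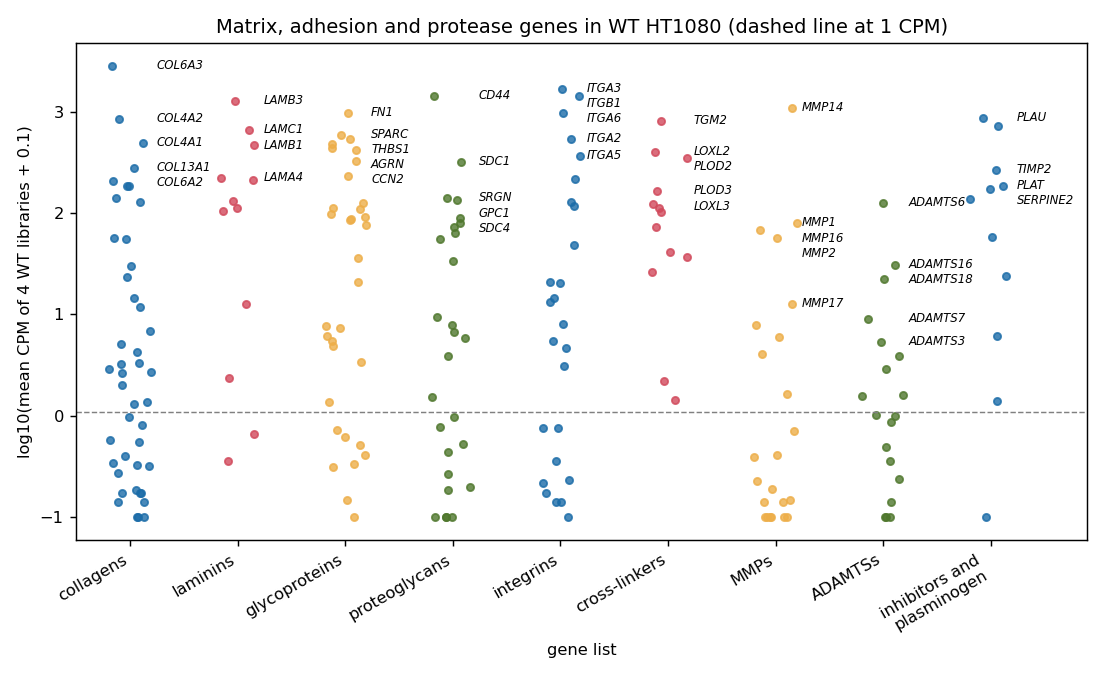
Mean level over the 4 WT libraries, as log10(CPM + 0.1), of each gene in 9 lists of matrix, adhesion and protease genes, with 1 point per gene and up to 5 of the highest by CPM of each list named. COL6A3 at 2843 CPM and MMP14 at 1101 CPM stand above the rest of their lists, also per length (588 and 1060 TPM), and the dashed line marks 1 CPM.

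All 20 mitosis genes in the list were detected, among them MKI67 at 821 ± 44.1 CPM, TOP2A at 559 ± 19.2 CPM and CDK1 at 86.9 ± 3.24 CPM. The glycolytic genes ENO1, PKM and LDHA were at 1876, 1045 and 594 TPM, and of the 26 genes of glycolysis and hypoxia 23 were detected, among them BNIP3, a hypoxia-induced gene, at 66.3 ± 1.05 CPM. The 3 that were not detected, CA9, EGLN3 and ADM, are also hypoxia markers and were at or under 1.60 CPM on average. All 20 genes of amino acid supply and stress were detected, with ATF4, their transcription factor, at 532 ± 16.9 CPM. Of 24 cholesterol genes 23 were detected. Of the other immediate early genes FOSB was at 0.764 ± 0.356 CPM, and JUN was at 200 ± 15.2 CPM. Interferon-stimulated genes were low, with a median of 4.66 TPM over 22 genes and ISG15 at 6.64 ± 1.102 CPM. Of 14 heat shock genes 12 were detected, and the small heat shock protein genes HSPB1 and CRYAB were the exceptions at 1.25 ± 0.683 and 0 CPM.

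All 11 classical lysine deacetylase genes, the family that the series edits and inhibits, were detected in WT cells, with a median of 22.9 TPM. HDAC2 and HDAC1 were at 136 ± 4.58 and 104 ± 2.91 CPM. HDAC6, which encodes KDAC6, was at 13.9, 22.5, 21.5 and 18.8 CPM, with replicate 1 the lowest. HDAC8, which encodes KDAC8, was at 18.3, 17.7, 17.5 and 15.7 CPM.

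Cancer-testis antigens are normally confined to germ cells. The name patterns used (MAGE, GAGE, PAGE, XAGE, SSX, CTAG) took 68 genes, of which 23 (33.8%) were detected and 25 (36.8%) were silent, against 61.2% and 18.8% of all protein-coding genes. The patterns also took SSX2IP, a centrosomal protein at 41.6 ± 3.24 CPM. CTAG2 was at 104, 138, 120 and 146 CPM, MAGEB2 at 82.0 ± 3.68 CPM, MAGEA3 at 77.5 ± 6.11 CPM, SSX1 at 71.6 ± 7.05 CPM and PAGE5 at 66.5 ± 2.13 CPM. MAGEA4 and MAGEA10 were silent. Many members are near-identical copies (MAGEA3 and MAGEA6, CTAG1A and CTAG1B), so the split of reads between copies is uncertain.

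Some listed families of tissue-restricted receptors and structural proteins were mostly silent. They held only a small part of the silent genes, since 3238 of the 3689 lay outside the olfactory receptor and keratin-associated families. Of 414 olfactory receptor genes 366 (88.4%) were silent, of 94 keratin-associated genes 85 (90.4%) and of 40 beta-defensin genes 39 (97.5%), against 18.8% of all protein-coding genes. By contrast only 36 of 508 zinc finger genes (7.09%) and 67 of 340 solute carriers (19.7%) were silent. Of 27 taste receptor genes 8 were silent and 11 were detected.

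Silent genes also lay side by side. On the autosomes and chromosome X there were 28 runs of 10 or more neighboring silent protein-coding genes, with 499 genes in all, of which 250 were olfactory receptors. The longest run held 59 genes at chr11:49952391-57191717, and 56 of them were olfactory receptors. A run of 35 genes at chr21:30165565-31038476 held 33 keratin-associated genes, and a run of 23 at chr4:8846076-9450666 held mainly near-identical USP17L copies, in which reads that fit several copies are hard to place. Chromosome 21 had the highest share of silent genes (78 genes, 36.1%), followed by chromosome 11 (27.5% of 1294), and chromosome 16 had the lowest (13.1% of 840).

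One stretch went against the silence of olfactory receptors. Of the 10 olfactory receptor genes that were detected, 9 lay next to each other between OR51B4 and OR52D1 (chr11:5301014-5489749), beside the beta-globin genes. OR51B5 was at 20.9 ± 1.41 CPM, OR52D1 at 13.1 ± 1.68 CPM and the other 7 between 3.02 and 7.09 CPM on average. The embryonic globin gene HBE1 next to them was at 13.2 ± 1.37 CPM, and the annotated transcripts of HBE1 and OR51B5 both reach to position 5505652 and so overlap the other receptor genes. HBB and HBG1 were silent. The counts of the 9 receptor genes therefore cannot be separated from reads of these longer transcripts. The 16 receptor genes before the globin genes, from OR52R1 to OR51V1, were silent.

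By counts, long noncoding RNA was led by MALAT1 and NEAT1, both nuclear RNAs. MALAT1 was at 5143, 3608, 3342 and 4476 CPM and NEAT1 at 2502, 1816, 1714 and 1989 CPM. Replicate 1 was the highest in both, and their coefficients of variation (CV, SD over mean) were 19.9% and 17.5%. NORAD and SNHG29, by contrast, varied by 3.12% and 1.57% around 530 and 391 CPM.

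Over the 12021 detected protein-coding genes the median CV was 8.15%, and the CV expected from counting had a median of 7.61%. Over the 9676 genes at a mean of 10 CPM or more the median CV was 6.98% (quartiles 4.63% and 10.4%). For 3946 of them (40.8%) the variance over the 4 libraries was at or under that expected from counting. A variance from 4 libraries is imprecise, and counting error alone would leave many genes there. This share therefore does not count genes free of other variation. Beyond counting the median CV was 2.76%, and 101 genes (1.04%) exceeded 20%. Over the 2285 genes at a mean of 100 CPM or more the median CV was 4.59%, against a median of 3.50% expected from counting. In 25.9% of them the variance was at or under that expected from counting. The Pearson correlation of log2(CPM + 0.5) over these genes was between 0.989 and 0.994 for the 6 pairs of libraries, as a description across genes. Replicates 2 and 3 were the closest pair, with a chi-square per degree of freedom of 1.48 over genes with 20 or more counts, where 1 would be sampling noise alone, and replicates 1 and 3 the farthest at 2.37. Every pair of WT libraries thus differed by more than sampling noise.

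**Figure D5:**
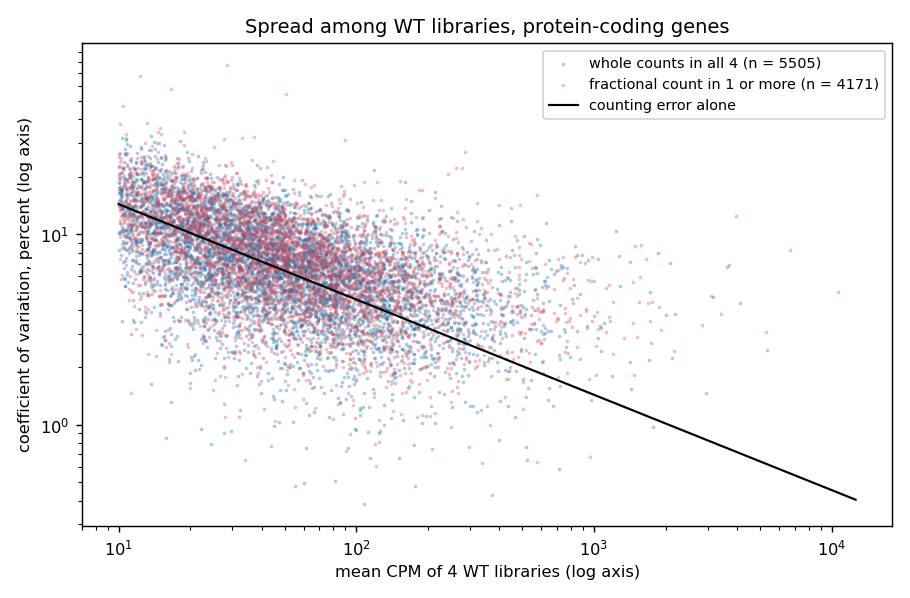
Coefficient of variation over the 4 WT libraries (percent, log axis) against mean CPM (log axis) for 9676 protein-coding genes at a mean of 10 CPM or more, with genes that had whole counts in all 4 libraries in blue and the others in red. The line marks counting error alone, and the highest points are mostly red, up to 76.7% for RGPD6.

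The 10 most variable genes beyond counting error at a mean of 10 CPM or more were RGPD6, FAM156B, SMN2, ATP6V1G2-DDX39B, NPIPB9, NPIPA9, CHRFAM7A, MAGEA2B, SLX1B and PSMC3IP. RGPD6, a copy of a nucleoporin gene, was at 18.8, 14.8, 61.1 and 19.1 CPM, so only replicate 3 stood out. SMN2, the near-identical copy of the motor neuron gene SMN1, was at 4.04, 21.5, 26.1 and 14.8 CPM. All 10 had fractional counts in at least 1 library, the mark of reads shared between genes, as did 43.1% of all genes at this level. Their levels are therefore uncertain. Among genes with whole counts in every library, a split made after the values were seen, the most variable was FSD1L at 19.5, 14.1, 12.3 and 8.81 CPM. BCL2L11, which encodes the cell death protein BIM, was also among the 10 most variable of these, at 21.9, 12.3, 12.3 and 15.5 CPM.

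The biological coefficient of variation, edgeR's estimate of the spread beyond counting that is common to all genes, was 4.64% for WT. The same measure was 3.65% for Tubastatin A, 6.07% for PCI-34051, 16.6% for KDAC6H216A, 16.7% for KDAC6H611A and 19.98% for KDAC8H143A. These differences were not tested. Some of them turned on single libraries, as values added after the data were seen show. Without replicate 1, WT was at 3.64%, level with Tubastatin A. KDAC6H216A without its replicate 1 was at 4.56%, close to WT. KDAC6H611A and KDAC8H143A stayed between 11.3% and 22.9% without any 1 library, above the 5.41% that WT reached at most. The groups differ in their number of libraries, and KDAC6H216A was a pool of independently obtained cell lines. In the edited lines the farthest pair of libraries reached a chi-square per degree of freedom of 28.0 to 66.2. The farthest pair was at 20.2 for PCI-34051, 5.27 for Tubastatin A and 2.37 for WT. This measure can also grow with the depth of the libraries, which is not given here for the other groups. KDAC6H216A replicates 2 to 4, however, lay at 2.02 to 3.13 from each other and at 20.2 to 29.8 from replicate 1.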

How the data were processed

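RNA was sequenced after depletion of ribosomal RNA as paired reads. Per the labels and the study's methods, the authors trimmed reads with Trimmomatic 0.39, aligned them to GRCh38 with Bowtie2 2.4.5, estimated gene abundance with RSEM 1.3.3 and deposited 1 table of expected counts, which are estimated counts that need not be whole because reads that fit several genes are divided. The annotation release and the strand setting are not given in the sources used here.

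Columns were assigned by their labels, and 0 columns were left unused. The table lists 60675 genes. Types and exon lengths were taken from GENCODE 44, through the identifier for 56558 genes and through the name for 362. MT-RNR1, MT-RNR2 and 7489 small RNA genes were left out. CPM and TPM were computed from the remaining counts as deposited, without rounding. Counts were rounded only for edgeR 4.0.16 (TMM factors and common dispersion) and DESeq2 1.42.0 (size factors, as an alternative scale). The dispersion estimate was tested on simulated data made from the WT means: biological variation of 5, 10 and 20% was recovered as 4.92, 9.97 and 19.8%. The CV beyond counting is the square root of the squared CV minus its Poisson part, set to 0 where negative.

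No group comparison was tested and no p-value was computed, since the account is of 1 group. Genes were named by rule: the 25 highest per length, members of the gene lists, the 10 most variable, and silent genes of the lists and of runs. The members and lists were chosen with earlier results of these data known. Alternatives covered the scale, the cutoffs, depth, transcript length and leaving out each replicate. Some genes of the lists are counted in them but not reported by name here.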

Additional observations from a re-analysis of the deposited data

Results flagged for a closer look

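Of 234 values examined (levels of named genes, summed levels of gene lists and measures of the libraries), 16 had 1 of the 4 libraries far from the others. Chance alone gives about 1 in 20 for independent, normally distributed values. The 234 values share the same 4 libraries and include sums over gene lists, so the 16 cannot be judged against that rate. In 11 of these, replicate 1, the shallowest library, was the distant one. It was the lowest for VIM (5033 CPM), FTL (725 CPM), RPS2 (1375 CPM), H1-2 (471 CPM), FLNA (3259 CPM) and IDH2 (11.5 CPM), and for the summed tissue inhibitors and plasminogen genes (2369 CPM) and cancer-testis antigens (910 CPM). It was the highest for MKI67 (887 CPM), NF1 (316 CPM) and EGR1 (2.36 CPM).

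Replicate 4 was the distant library for CD44 (1376 CPM), HDAC1 (99.4 CPM) and CCNA2 (117 CPM), where it was the lowest, and for ETV5 (155 CPM), where it was the highest. Replicate 3 was the lowest for SOX9 (169 CPM). For EGR1, HDAC1, CCNA2 and SOX9 the variance over the libraries was at or under that expected from counting. EGR1 had only 8 counts in replicate 1. The cause was not tested.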

How the results depend on the processing

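The number of detected protein-coding genes stayed between 11443 (2 CPM) and 12598 (0.5 CPM) over the other scales, cutoffs and depths tried, and between 12101 and 12127 without 1 replicate. The number of silent genes was 3689 and ranged from 3876 to 3979 without 1 replicate, and rose to 5903 when up to 3 counts were allowed in each library. The share of protein-coding counts in the 10 highest genes was 4.99% of all kept counts, 4.87% without mitochondrial mRNAs and MTRNR2L genes (nuclear copies of MT-RNR2), and 4.11% for genes ranked per length, and 5.25% to 5.27% without 1 replicate. For the 100 highest the same values were 16.4%, 16.4%, 13.0%, and 17.2% to 17.4%. Of the 25 genes highest per length, 15 remained with the mean transcript length, 19 with the longest transcript and 24 without any 1 replicate. The median CV was 11.2% with no filter on low counts, 6.98% at a mean of 10 CPM or more, and 6.81% to 8.15% without 1 replicate, the lowest without replicate 1. The biological coefficient of variation was 3.64% to 5.41% without 1 replicate. Counted over all counts, the levels of named genes were 0.659 to 0.667 times those given, and TMM changed them by factors of 0.996 to 1.00. Replicate 1 was the shallowest library, so genes near 1 CPM are least certain there. No paired analysis was possible because 1 group was described and no test was made.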

Other observations

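Replicate 1 differed from the other WT libraries by kind of transcript. Over 344 long noncoding RNAs at a mean of 10 CPM or more, its median log2 difference from the other libraries was 0.212, and it was the highest library for 220 of them (64.0%), against 30.1% of 9663 nuclear protein-coding genes. The median CV of these noncoding RNAs was 13.3%, against 6.98% for nuclear protein-coding genes.

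Among the same protein-coding genes, sorted by exon length into 4 groups of like size, the median log2 difference of replicate 1 from the others was -0.0737 in the group with the shortest exons (388 to 3809 bases), -0.0193 and 0.0162 in the middle groups, and 0.0522 in the group with the longest (8801 bases and more). For replicate 2 the same values ran from 0.0467 to -0.0191. The cause was not tested.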
